A study of Homo sapiens with 12 samples.

Results

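The transcripts of human brain microvascular endothelial cells (HBMEC) in control glucose were compared between cells transfected with an siRNA against Glut1 (siGlut1) and cells transfected with a non-silencing siRNA (NS). The comparison was taken from the sample labels and covers 6 of the 12 samples of the series, 3 in each group. Both groups were kept in control glucose and transfected for 48 h, so that the NS cells had also received an siRNA. The HBMEC came from a commercial supplier, and the labels name the siRNA only by its target. The other 6 samples hold the same pair of siRNAs in high glucose, at a concentration not given in the sources used here, and entered only the shared estimate of the spread and a test of whether the response differed between media.

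Brain microvascular endothelial cells are the inner lining of brain capillaries and the seat of the blood-brain barrier. They take up glucose from the blood mainly through Glut1, a facilitative transporter encoded by SLC2A1, which moves glucose down its concentration gradient in either direction. Type I interferon acts through its receptor and STAT and IRF factors on genes whose products restrict viruses, and NF-kB acts in endothelium on chemokines and on adhesion molecules for leukocytes.

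The 6 libraries held 40135082 to 79130054 counts over genes. Of the 23297 gene entries analysed, 14334 had enough counts to be tested with edgeR's quasi-likelihood test, and a gene is said to have risen or fallen where its p adjusted by Benjamini-Hochberg over all of them was under 0.05. Levels are given as CPM, counts scaled to a common library size, in replicates 1, 2 and 3 in that order, and differences as log2 fold change of siGlut1 over NS ± SE. The labels do not say that the replicates came from separate cultures, so the spread that the p-values rest on could be technical only. Both libraries numbered 3 stood apart from their groups. Their root mean square distance from the mean of the other libraries of the group, on log2 CPM, was 0.452 for siGlut1 3 and 0.475 for NS 3. The other 9 libraries of the series had 0.301 to 0.437, with NS 2 the highest. For NS in high glucose the distance is between 2 libraries only. The chi-square per gene between replicate counts was 37.2 and 45.1 for NS 3 with NS 1 and 2, and 8.92 between NS 1 and 2. For siGlut1 3 it was 20.5 and 32.9, and 10.2 between siGlut1 1 and 2. Results that rest on the libraries numbered 3 are given with and without both.

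The cells carried endothelial transcripts in both groups. All 12 endothelial markers, among them PECAM1, CDH5 and VWF, were tested, and their summed levels overlapped between the groups, at 7135 to 9092 CPM in siGlut1 libraries and 6245 to 9421 CPM in NS libraries. Pericyte and smooth muscle markers summed to 3370 to 3492 CPM with siGlut1 and 3324 to 3890 CPM with NS, nearly all from ANPEP and RGS5, while 7 of 12, including PDGFRB, CSPG4, KCNJ8 and DES, stayed under 1 CPM in all 6 libraries. All 8 astrocyte markers and 10 of 12 microglia and leukocyte markers were under 1 CPM in all 6, while CD68 of the latter had 37.9 to 73.0 CPM. Fibroblast markers summed to 16.7 to 40.0 CPM with siGlut1 and 9.33 to 28.4 CPM with NS. Epithelial markers summed to 292 to 385 CPM with siGlut1 and 311 to 389 CPM with NS, mostly from KRT18 and KRT19. KRT19 had 110 CPM in siGlut1 3 and 109 CPM in NS 3, against 35.4 to 43.3 CPM in the other libraries. A single marker of another cell type passed in each of 3 lists: RGS5 fell (-0.34 ± 0.081), and CNP of the oligodendrocyte list (0.37 ± 0.0699) and FLT4 of the lymphatic list rose. Summed levels were higher with siGlut1 in all libraries for neuron markers, at 183 to 189 CPM with siGlut1 and 139 to 145 CPM with NS, for oligodendrocyte markers, at 221 to 231 CPM with siGlut1 and 162 to 189 CPM with NS, and for lymphatic markers, at 243 to 271 CPM with siGlut1 and 164 to 228 CPM with NS. Those sums came mostly from TUBB3, SYT1 and MAP2, from CNP, and from LYVE1, FLT4 and RELN, while STMN2, OLIG1, OLIG2, SOX10 and PDPN were at 0 in all 6 libraries. The part of other cells in the results was not tested.

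SLC2A1 (hg19, chromosome 1, 43391046 to 43424847) was lower in every siGlut1 library. Its level was 8.56, 9.05 and 6.26 CPM with siGlut1 and 25.7, 23.7 and 22.2 CPM with NS, so that the groups were far apart and siGlut1 3 was the lowest library. It averaged 7.96 ± 1.49 CPM with siGlut1 and 23.9 ± 1.73 CPM with NS (SD, n = 3 each), a log2 fold change of -1.58 ± 0.129 with an edgeR adjusted p of 0.000866, a level 0.334 times that with NS. SLC2A3 encodes Glut3, the high-affinity transporter of neurons, and had 77.4, 79.3 and 75.9 CPM with siGlut1 and 60.2, 65.0 and 63.6 CPM with NS. All 3 siGlut1 values lay above all 3 NS values, and the transcript rose by 0.30 ± 0.0692 on the log2 scale (edgeR adjusted p = 0.0417; 0.0935 without both libraries numbered 3). SLC2A3 passed in 6 of 16 alternative settings of the analysis, and in 0 of those that left out 1 library. In high glucose it stood at 0.15 (edgeR adjusted p = 0.315), and its difference between media did not pass. Per kilobase of deposited gene length, SLC2A3 stood at 19.7 CPM with siGlut1 and 16.0 CPM with NS, above SLC2A1 at 2.17 CPM with siGlut1 and 6.51 CPM with NS. Of the 10 glucose transporters tested, these were the only ones past the threshold.

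Over all genes, 240 rose (1.67% of those tested) and 176 fell (1.23%), together 2.9%. Most changes were small: the median size among these 416 genes was 0.48 on the log2 scale, and 39 genes were at least 2-fold higher (0.272%) and 12 at least 2-fold lower (0.0837%). At an unadjusted p under 0.05, edgeR gave 1293 genes higher (9.02%) and 1204 lower (8.4%); at an adjusted p under 0.05, DESeq2 gave 564 higher (3.93%) and 486 lower (3.39%), and limma-voom 618 higher (4.31%) and 433 lower (3.02%). The siGlut1 and NS libraries did not overlap for any of the 416, and were also separate for 20.5% of all genes tested. Separate groups in a gene that passed therefore only describe its values and add no support. Without both libraries numbered 3, 277 genes passed (135 higher, 142 lower, 1.95%), of which 195 were among the 416. With 1 library left out, the count was 135, 153 and 181 without siGlut1 1, 2 and 3, 142 without NS 1, and 317 and 306 without NS 2 and 3.

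Interferon-stimulated genes had the most risen members of the 44 gene lists examined. Of 110 tested members of that list, 35 rose and 0 fell by edgeR, set against 1.67% and 1.23% of all genes. At an unadjusted p under 0.05 the counts were 65 higher and 5 lower (9.02% and 8.4% of all genes), by DESeq2 53 and 1 (3.93% and 3.39%), and by limma-voom 46 and 2 (4.31% and 3.02%). The median log2 fold change was 0.42 over the list and -0.0066 over all genes, 91 of the 110 were positive, and the groups did not overlap for 67 of the 110 against 20.5% of all genes. In bulk RNA, a rise in each cell cannot be told apart from a larger share of cells that carry such transcripts.

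The promoters of 3 of these genes are shown first, chosen so that the element through which interferon acts can be seen. Its core, searched as GAAA, any 2 bases and GAAA on either strand, is in capitals in the 250 bases before the start of 3 genes, those with the lowest p among the risen members that hold at least 2 copies. The sequences are from RefSeq on GRCh38.p14, plus strand: IFI27 at chr14:94110486-94110735, IFI44L at chr1:78620198-78620447 and ISG15 at chr1:1013247-1013496.
IFI27: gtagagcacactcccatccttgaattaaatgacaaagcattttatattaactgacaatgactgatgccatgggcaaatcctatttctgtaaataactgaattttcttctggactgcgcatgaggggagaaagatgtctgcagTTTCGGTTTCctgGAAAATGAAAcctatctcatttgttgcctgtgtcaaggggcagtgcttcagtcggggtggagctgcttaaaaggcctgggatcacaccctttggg
IFI44L: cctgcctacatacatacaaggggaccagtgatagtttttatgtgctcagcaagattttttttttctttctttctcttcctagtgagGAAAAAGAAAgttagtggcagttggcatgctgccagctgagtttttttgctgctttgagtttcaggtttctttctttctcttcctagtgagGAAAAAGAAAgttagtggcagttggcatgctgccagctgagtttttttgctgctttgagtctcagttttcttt
ISG15: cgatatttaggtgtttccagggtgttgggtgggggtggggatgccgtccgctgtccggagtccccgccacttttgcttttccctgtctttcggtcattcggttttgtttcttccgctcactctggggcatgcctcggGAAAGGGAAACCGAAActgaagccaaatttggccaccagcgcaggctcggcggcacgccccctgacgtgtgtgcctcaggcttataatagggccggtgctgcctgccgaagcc
The copies begin 108 and 95 bases before the start of IFI27, on opposite strands, 164 and 73 bases before that of IFI44L, and 113 and 107 bases before that of ISG15, where they overlap. Of 35116 RefSeq windows of the same length, 3.02% hold at least 1 copy of the core. The 3 genes were chosen for holding at least 2, so their copies say nothing about the list. A promoter window was found for 26 of the 35 risen members (74.3%), so that a share over the list is void, since too few have one.

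Of the antiviral effectors, 27 of 68 rose (against 1.67% of all genes), with a median of 0.70. MX2, a GTPase that acts on retroviruses, had 21.1, 26.5 and 33.1 CPM with siGlut1 and 4.07, 4.25 and 3.79 CPM with NS. The lowest siGlut1 library was several times the highest NS library (2.74 ± 0.489, edgeR adjusted p = 0.0182). RSAD2, which encodes viperin, had 16.5, 21.7 and 40.4 CPM with siGlut1 and 3.10, 5.06 and 4.73 CPM with NS (2.61 ± 0.498, edgeR adjusted p = 0.024). Its neighbour CMPK2, a nucleotide kinase of mitochondria, had 15.2, 17.1 and 31.6 CPM with siGlut1 and 3.51, 3.89 and 4.63 CPM with NS (2.40 ± 0.443). In both, siGlut1 3 was by far the highest library.

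More abundant effectors kept the same order. MX1, a GTPase that traps influenza nucleocapsids, had 307, 376 and 441 CPM with siGlut1 and 89.9, 109 and 90.0 CPM with NS (1.96 ± 0.291, edgeR adjusted p = 0.0094). ISG15, a ubiquitin-like modifier, had 250, 292 and 365 CPM with siGlut1 and 101, 108 and 84.9 CPM with NS (1.62 ± 0.254, edgeR adjusted p = 0.0108). The groups were separate for both, and again siGlut1 3 was highest. IFIT1, which binds viral RNA that lacks a host cap, had 83.1, 104 and 156 CPM with siGlut1 and 22.7, 32.8 and 31.5 CPM with NS (1.98 ± 0.337). IFITM1, a membrane protein that blocks viral entry, had 60.7, 56.5 and 70.3 CPM with siGlut1 and 15.0, 18.7 and 11.7 CPM with NS (2.05 ± 0.432); it has close paralogs among which the authors' counting could have split reads. IFI44L (1.75), IFI6 (1.56), XAF1 (1.54), OAS2 (1.47), which makes the activator of RNase L, and EPSTI1 (1.36) also rose.

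IFI27, a strongly interferon-inducible gene, kept its call without both libraries numbered 3. Its level was 761, 793 and 807 CPM with siGlut1 and 364, 326 and 264 CPM with NS. The siGlut1 libraries lay within a narrow range, all far above every NS library (1.31 ± 0.168, edgeR adjusted p = 0.00456; 1.16 with adjusted p = 0.0435 without both libraries numbered 3).

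Of the genes that sense and carry the signal, 4 of 23 rose (against 1.67% of all genes), with a median of 0.03; the difference from the effectors was not tested. The further members named in this paragraph were chosen after their values were seen. IRF7, the factor that amplifies interferon production, had 34.4, 49.98 and 52.9 CPM with siGlut1 and 23.1, 24.2 and 18.5 CPM with NS (1.06 ± 0.207, edgeR adjusted p = 0.024). STAT2 (0.44 ± 0.089) and the RNA sensor homologue DHX58 (0.79 ± 0.166) rose with it. IRF9, which binds DNA in a complex with STAT2, had 38.9, 47.0 and 42.1 CPM with siGlut1 and 34.7, 39.0 and 32.7 CPM with NS, with overlap and an edgeR adjusted p of 0.138. The receptor chain IFNAR1 stood at -0.12 ± 0.0737 (adjusted p = 0.44) and the kinase JAK1 at 0.03 ± 0.0901 (adjusted p = 0.895). In antigen presentation 4 of 19 rose (against 1.67% of all genes). Among them were B2M, the light chain of class I molecules, with 1605, 1678 and 1567 CPM with siGlut1 and 1107, 1230 and 1089 CPM with NS (0.50 ± 0.102), and the peptide transporter TAP1 (0.70 ± 0.135). The secreted CXCL10, which draws T cells, was low, at 2.49, 3.77 and 5.04 CPM with siGlut1 and 0.887, 2.07 and 1.88 CPM with NS (adjusted p = 0.122).

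**Figure D1:**
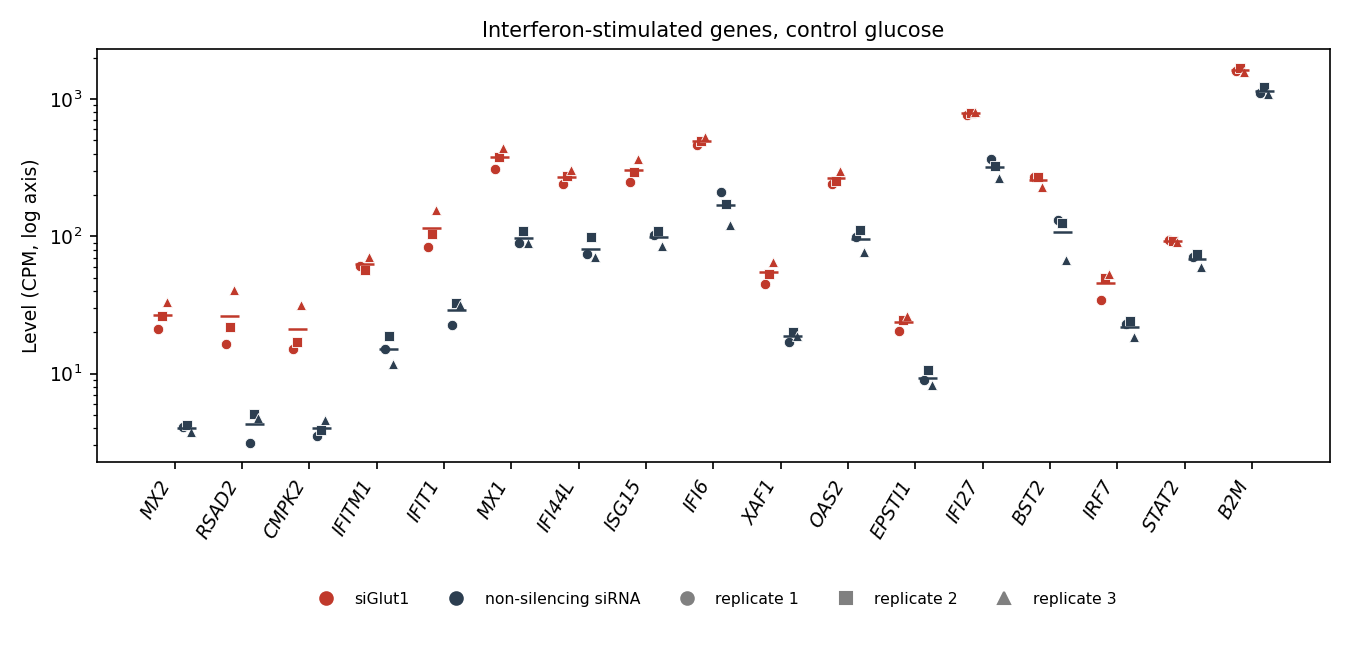
Level of 17 interferon-stimulated genes (CPM, log axis) in the 3 siGlut1 libraries (red, left of each pair) and the 3 NS libraries (dark, right); symbols give the replicate and short lines the group mean. The groups do not overlap for any gene shown, as for all 416 genes past the threshold. The siGlut1 3 library (red triangle) is the highest for every gene drawn from MX2 to IFI27 and for IRF7, but not for B2M.

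The number of interferon calls changed with the libraries left out, which also leaves fewer samples for the test. The list's level, the median over its members of log2 CPM relative to the mean of the 6 libraries, was 0.12, 0.24 and 0.30 with siGlut1 and -0.25, -0.10 and -0.32 with NS, so that siGlut1 3 was the highest library and NS 3 the lowest. Without both, only IFI27 of the 110 passed by edgeR, while the list's median log2 fold change was 0.35 and MX1 still stood at 1.76 (adjusted p = 0.107) and ISG15 at 1.36 (adjusted p = 0.122). With 1 library left out, 20, 11 and 8 members passed without siGlut1 1, 2 and 3, 6 without NS 1, 28 without NS 2 and 9 without NS 3.

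Most NF-kB targets had a negative log2 fold change. Of 53 tested members, 3 fell by edgeR (against 1.23% of all genes), 12 by DESeq2 (3.39%) and 11 by limma-voom (3.02%). At an unadjusted edgeR p under 0.05, 23 were lower (8.4% of all genes). By each of these counts 0 rose. The median was -0.48 and 42 were negative. NFKB2, a subunit of NF-kB and its own target, had 27.4, 31.2 and 24.0 CPM with siGlut1 and 42.0, 46.1 and 33.6 CPM with NS (-0.56 ± 0.129, edgeR adjusted p = 0.0434). TNIP1, an inhibitor that NF-kB induces, had 111, 127 and 96.7 CPM with siGlut1 and 157, 174 and 132 CPM with NS (-0.47 ± 0.11, edgeR adjusted p = 0.0449). In both, all siGlut1 libraries lay below all NS libraries, and replicate 2 was the highest of each group. The chemokine CCL20 was rare, at 0.0408, 0.127 and 0.0435 CPM with siGlut1 and 0.323, 0.708 and 1.25 CPM with NS (-3.28 ± 0.663, edgeR adjusted p = 0.026; 0.122 without both libraries numbered 3).

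The adhesion molecules and chemokines best known as NF-kB targets in endothelium did not pass; those named here were chosen after their values were seen. ICAM1, which binds leukocyte integrins, had 70.2, 103 and 51.4 CPM with siGlut1 and 137, 216 and 102 CPM with NS (-1.02 ± 0.311, edgeR adjusted p = 0.112). Its groups overlapped, since siGlut1 2 lay just above NS 3, and replicate 2 was again the highest of each group. At each replicate number siGlut1 lay below NS, a pairing that the fit as reported did not use. VCAM1 stood at -1.53 ± 0.562 (adjusted p = 0.178), SELE at -1.24 ± 0.812 (adjusted p = 0.48) and CCL2 at -1.01 ± 0.584 (adjusted p = 0.418). RELA, the main activating subunit, stood at 0.08 ± 0.0714 (adjusted p = 0.628). The level of the list was -0.27, 0.02 and -0.34 with siGlut1 and 0.12, 0.38 and 0.02 with NS. With 1 library left out, 0 members passed without siGlut1 1 or siGlut1 3, 1 without NS 1 or NS 2, and 2 without siGlut1 2 or NS 3; 2 passed without both libraries numbered 3.

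**Figure D2:**
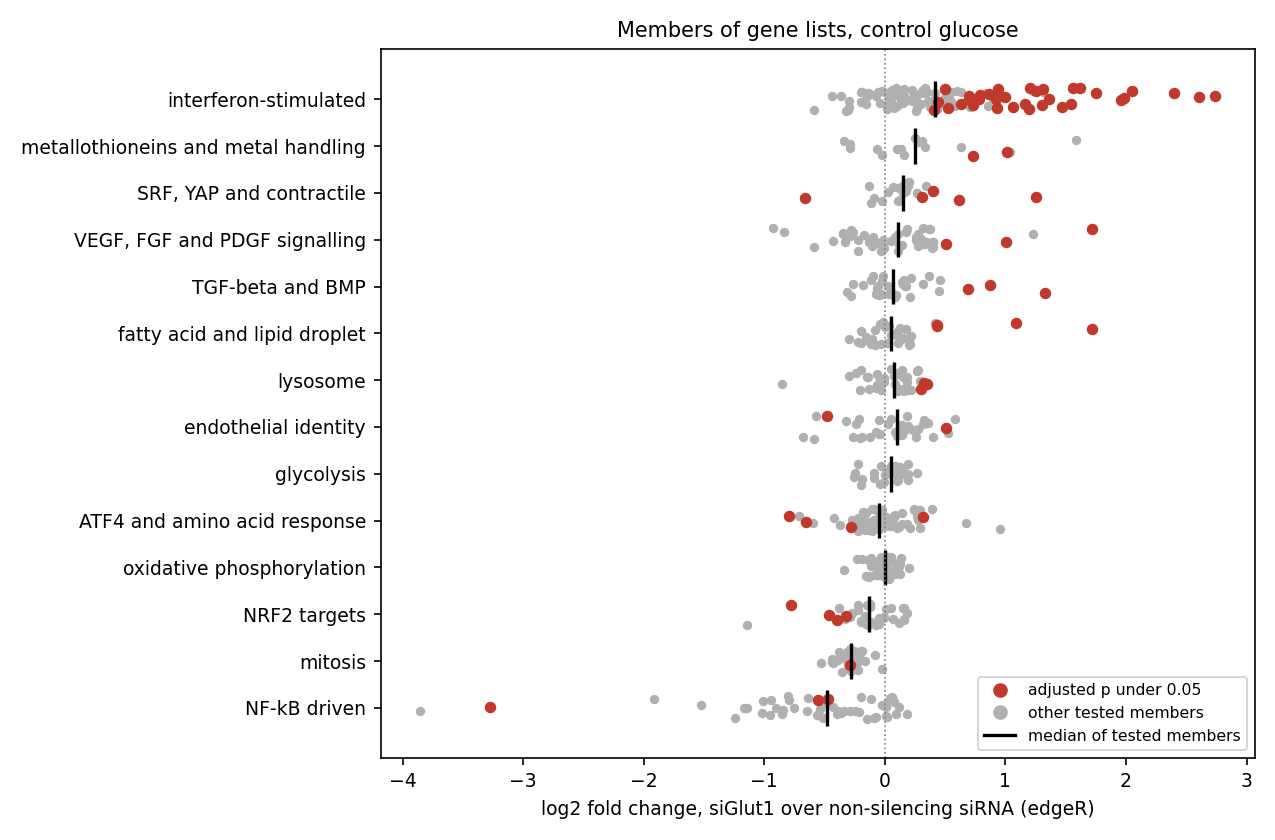
Log2 fold change (siGlut1 over NS, edgeR) of every tested member of 14 gene lists; red points have an adjusted p under 0.05, grey points do not, and the bar is the median of the list. The interferon list extends to the right with 35 red points and a median of 0.42, the NF-kB list to the left with 3 red points and a median of -0.48, and glycolysis and oxidative phosphorylation have none.

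Of 25 genes of glycolysis, 0 passed by edgeR, DESeq2 or limma-voom (2 higher and 0 lower at an unadjusted p under 0.05), with a median of 0.05. The most abundant, GAPDH, had 4832, 4963 and 4936 CPM with siGlut1 and 4552, 4654 and 4526 CPM with NS (0.10 ± 0.0533, edgeR adjusted p = 0.366). ENO1, the enolase of glycolysis, had 1863, 1807 and 2092 CPM with siGlut1 and 1951, 1798 and 2044 CPM with NS, with groups that overlapped (adjusted p = 0.977). TXNIP, a glucose-induced inhibitor of glucose uptake, had 96.4, 122 and 75.7 CPM with siGlut1 and 119, 187 and 83.9 CPM with NS, with overlap and wide spread (-0.40 ± 0.286, adjusted p = 0.517). In oxidative phosphorylation 0 of 47 passed by edgeR, DESeq2 or limma-voom (1 higher and 0 lower at an unadjusted p under 0.05), with ATP5B and ATP5A1 as its most abundant members at 0.0028 ± 0.0606 and -0.08 ± 0.0527.

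GLO1, the glyoxalase that clears the glycolytic by-product methylglyoxal, had 178, 170 and 171 CPM with siGlut1 and 236, 226 and 250 CPM with NS. The highest siGlut1 library lay well below the lowest NS library (-0.46 ± 0.0625, edgeR adjusted p = 0.00607). By edgeR, GLO1 was the 1 of 19 genes of the pentose phosphate, polyol and hexosamine pathways to pass. ACO1, the cytosolic aconitase that doubles as an iron sensor, was the 1 of 26 of the TCA cycle list (-0.47 ± 0.0786). Of all genes, 2.9% passed in either direction. For these lists in that order, DESeq2 gave 3 and 3 lower (3.39% of all genes) and limma-voom 5 and 2 (3.02%), with 0 higher. At an unadjusted edgeR p under 0.05, 5 and 4 were lower (8.4%) and 1 and 1 higher (9.02%). SLC50A1, the human member of the SWEET family of sugar transporters, had 21.6, 22.2 and 21.4 CPM with siGlut1 and 32.0, 30.5 and 32.9 CPM with NS (-0.55 ± 0.0696, edgeR adjusted p = 0.00391).

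Some targets of NRF2, the factor that answers oxidants, fell. Of 34 tested, 4 fell and 0 rose by edgeR (against 1.23% and 1.67% of all genes), 25 were negative and the median was -0.13. Lower and higher counts were 10 and 2 at an unadjusted edgeR p under 0.05 (8.4% and 9.02% of all genes). They were 6 and 0 by DESeq2 (3.39% and 3.93%) and 8 and 1 by limma-voom (3.02% and 4.31%). NQO1, a quinone reductase used as a marker of NRF2, had 247, 241 and 227 CPM with siGlut1 and 329, 335 and 320 CPM with NS, with narrow and separate groups (-0.46 ± 0.0622, edgeR adjusted p = 0.00607). PIR, an iron-binding nuclear protein, had 36.3, 46.3 and 34.4 CPM with siGlut1 and 62.1, 77.9 and 60.8 CPM with NS (-0.78 ± 0.121). Thioredoxin reductase TXNRD1 (-0.40 ± 0.0881) and sulfiredoxin SRXN1 (-0.32 ± 0.0714) fell as well, TXNRD1 not without both libraries numbered 3 (adjusted p = 0.0761). PRDX4, a peroxiredoxin of the endoplasmic reticulum that is not in the list, rose, at 121, 110 and 139 CPM with siGlut1 and 75.6, 78.7 and 80.6 CPM with NS (0.65 ± 0.0959). Of 17 glutathione transferases, 2 fell (against 1.23% of all genes). They were GSTM4, at 2.53, 2.98 and 3.13 CPM with siGlut1 and 5.68, 5.31 and 5.73 CPM with NS (-0.95 ± 0.135), and MGST2 (-0.47 ± 0.0979). GSTM4 lies among close paralogs, among which counting could have split reads.

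ASNS, which makes asparagine and is a standard target of the stress factor ATF4, had 17.0, 19.4 and 21.0 CPM with siGlut1 and 34.2, 33.8 and 31.6 CPM with NS. Every siGlut1 library lay well below every NS library (-0.80 ± 0.114, edgeR adjusted p = 0.00679). SLC6A6, the taurine transporter, had 53.1, 55.2 and 44.4 CPM with siGlut1 and 79.1, 88.4 and 72.1 CPM with NS (-0.65 ± 0.104, adjusted p = 0.0108). The mitochondrial serine enzyme SHMT2 also fell (-0.28 ± 0.0564), while the amino acid exchanger SLC7A6 rose (0.32 ± 0.0623). They were the 3 lower and 1 higher of 64 tested in the ATF4 and amino acid list, against 1.23% and 1.67% of all genes, and the median of the list was -0.05. SHMT2 and SLC7A6 did not pass without both libraries numbered 3 (edgeR adjusted p = 0.0536 and 0.0976).

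Fatty acid genes rose in a small set. PPARG, the nuclear receptor that drives fatty acid uptake and storage, was low, with 1.67, 1.76 and 1.74 CPM with siGlut1 and 0.363, 0.759 and 0.469 CPM with NS (1.72 ± 0.299, edgeR adjusted p = 0.0139; 0.0555 without both libraries numbered 3). FABP4, a fatty acid carrier of fat cells and capillary endothelium and a PPARG target, had 21.5, 22.5 and 18.9 CPM with siGlut1 and 7.86, 11.7 and 10.02 CPM with NS (1.09 ± 0.15, edgeR adjusted p = 0.00607). For both, the groups were far apart. FABP5 had 227, 214 and 201 CPM with siGlut1 and 153, 159 and 165 CPM with NS (0.43 ± 0.0781), and the lipid droplet coat PLIN2 had 117, 122 and 125 CPM with siGlut1 and 89.6, 97.0 and 84.0 CPM with NS (0.43 ± 0.0723). These were 4 of 35 tested (against 1.67% of all genes), and 0 fell by edgeR, DESeq2 or limma-voom (2 at an unadjusted p under 0.05). The median of the list was 0.05. Of 24 cholesterol genes, 0 passed by edgeR or limma-voom and 1 lower by DESeq2 (3 lower and 0 higher at an unadjusted p under 0.05).

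**Figure D3:**
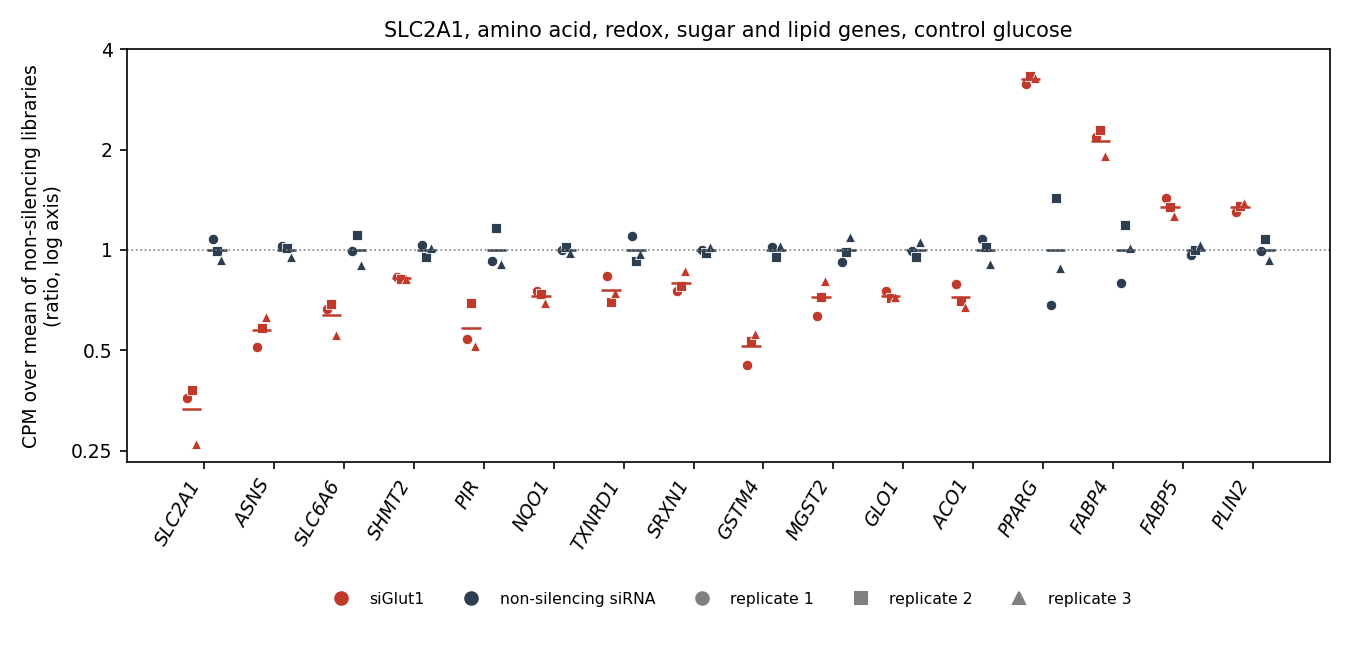
CPM of 16 metabolic genes in each library divided by the mean of the 3 NS libraries (ratio, log axis), siGlut1 in red on the left of each pair and NS in dark on the right; symbols give the replicate and short lines the group mean. SLC2A1 lies lowest, the amino acid, redox and sugar genes from ASNS to ACO1 lie below 1 with siGlut1, and PPARG, FABP4, FABP5 and PLIN2 lie above 1.

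Of 23 tested genes of the SRF, YAP and contractile list, 4 rose and 1 fell (against 1.67% and 1.23% of all genes), with a median of 0.15. Higher and lower counts were 8 and 1 at an unadjusted edgeR p under 0.05 (9.02% and 8.4% of all genes). They were 5 and 1 by DESeq2 (3.93% and 3.39%) and 4 and 1 by limma-voom (4.31% and 3.02%). TPM4, a tropomyosin of stress fibres, had 1237, 1170 and 1244 CPM with siGlut1 and 757, 826 and 806 CPM with NS (0.61 ± 0.0685, edgeR adjusted p = 0.00178). TAGLN, an actin binder of smooth muscle that TGF-beta induces, had 11.8, 10.98 and 7.09 CPM with siGlut1 and 4.31, 5.51 and 2.79 CPM with NS (1.26 ± 0.238). TPM2 (0.31) and the matrix protein gene CTGF (0.40) rose less, and CALD1, caldesmon, fell to 235, 224 and 181 CPM with siGlut1, against 346, 327 and 336 CPM with NS (-0.66 ± 0.102). For TPM4, TAGLN and CALD1 the groups did not overlap. TPM2 and CTGF did not pass without both libraries numbered 3 (edgeR adjusted p = 0.0663 and 0.105).

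In the TGF-beta and BMP list, 3 of 35 rose (against 1.67% of all genes), all of them ligands. By edgeR 0 fell. Higher and lower counts were 6 and 0 by DESeq2 (3.93% and 3.39% of all genes) and 6 and 0 by limma-voom (4.31% and 3.02%). At an unadjusted edgeR p under 0.05 they were 9 and 1 (9.02% and 8.4%). GDF6, a BMP, had 3.83, 4.03 and 3.74 CPM with siGlut1 and 1.49, 1.52 and 1.596 CPM with NS, with almost no spread within a group (1.33 ± 0.158, edgeR adjusted p = 0.00298). INHBA, the subunit of activin A, had 28.9, 19.5 and 29.0 CPM with siGlut1 and 14.2, 13.5 and 14.4 CPM with NS (0.87 ± 0.148), and TGFB2 rose by 0.69 ± 0.165. Growth factor binding proteins IGFBP1 (1.72 ± 0.294) and IGFBP3 (1.001 ± 0.226), both at a few CPM or less, and the lymphatic VEGF receptor FLT4 (0.51 ± 0.118) were the 3 of 49 to rise in the VEGF, FGF and PDGF list. That stands against 1.67% of all genes, and 0 fell. Higher and lower counts in this list were 11 and 4 at an unadjusted edgeR p under 0.05 (9.02% and 8.4% of all genes). They were 7 and 3 by DESeq2 (3.93% and 3.39%) and 9 and 1 by limma-voom (4.31% and 3.02%). N-cadherin CDH2 (0.55 ± 0.112), the matrix cross-linker LOXL1 (0.67 ± 0.124) and the membrane protease ADAM15 (0.41 ± 0.0873) rose. By edgeR each was the 1 gene to rise in its list, against 1.67% of all genes. Those lists held 11 mesenchymal transition, 31 collagen and basement membrane, and 18 metalloproteinase and inhibitor genes tested. Without both libraries numbered 3, GDF6 kept its call (adjusted p = 0.0109), while INHBA, TGFB2, IGFBP1, IGFBP3, FLT4, CDH2, LOXL1 and ADAM15 did not pass, with edgeR adjusted p from 0.0543 for LOXL1 to 0.154 for IGFBP3.

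Single genes of endothelial identity, junctions and the glycocalyx passed the threshold. Of 37 identity genes, 1 rose and 1 fell by edgeR (against 1.67% and 1.23% of all genes), 7 and 1 by DESeq2 (3.93% and 3.39%) and 9 and 1 by limma-voom (4.31% and 3.02%). FLT4 rose and FLI1, an ETS factor of endothelium, fell, at 190, 205 and 160 CPM with siGlut1 and 241, 287 and 246 CPM with NS (-0.48 ± 0.108, edgeR adjusted p = 0.0382; 0.0767 without both libraries numbered 3). Of 24 junction genes, 1 fell and 0 rose by edgeR (against 1.23% and 1.67% of all genes). DESeq2 gave 2 lower and limma-voom 1 (3.39% and 3.02%). The gene that fell by edgeR was CLDN11 (-0.42 ± 0.0834). It had 521, 508 and 430 CPM with siGlut1 and 715, 615 and 619 CPM with NS. Of 30 genes of the glycocalyx list, 1 rose and 1 fell by edgeR (against 1.67% and 1.23% of all genes). Higher and lower counts were 4 and 1 by DESeq2 (3.93% and 3.39%) and 4 and 1 by limma-voom (4.31% and 3.02%). At an unadjusted edgeR p under 0.05 they were 7 and 1 (9.02% and 8.4%). XYLT2, which starts heparan and chondroitin sulfate chains, fell (-0.68 ± 0.0744, edgeR adjusted p = 0.0017). It had 24.6, 25.1 and 25.1 CPM with siGlut1 and 39.2, 38.6 and 41.7 CPM with NS. HS6ST2, which sulfates heparan, rose (0.64 ± 0.153). The groups did not overlap for any of these 4 genes.

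All 40 tested mitosis genes had a negative log2 fold change, with a median of -0.28, but CDC25B, the phosphatase that starts mitosis, was the 1 to pass (-0.29 ± 0.0676, edgeR adjusted p = 0.0448), against 1.23% of all genes. At an unadjusted p under 0.05, 6 of the 40 were lower, against 8.4% of all genes. The level of the list was -0.09, -0.43 and 0.14 with siGlut1 and 0.20, -0.23 and 0.43 with NS. Both libraries numbered 3 were the highest of their groups, both numbered 2 the lowest, and the groups overlapped. Within each replicate number the siGlut1 library lay below the NS library, and the fit as reported did not treat these as pairs. Of 36 genes of S phase, 34 were negative and 0 passed by edgeR, DESeq2 or limma-voom (2 lower at an unadjusted p under 0.05). Among cyclins and inhibitors 3 of 19 fell (against 1.23% of all genes). CCND1, cyclin D1, had 428, 388 and 440 CPM with siGlut1 and 609, 541 and 607 CPM with NS (-0.48 ± 0.0907). UHMK1, a kinase of the inhibitor p27, had 74.8, 70.8 and 80.0 CPM with siGlut1 and 136, 128 and 166 CPM with NS (-0.93 ± 0.0933, edgeR adjusted p = 0.000866). PHLDA2, an imprinted suppressor of placental growth, had 10.7, 10.8 and 9.96 CPM with siGlut1 and 23.9, 19.7 and 23.7 CPM with NS (-1.10 ± 0.172). All 3 genes had separate groups.

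**Figure D4:**
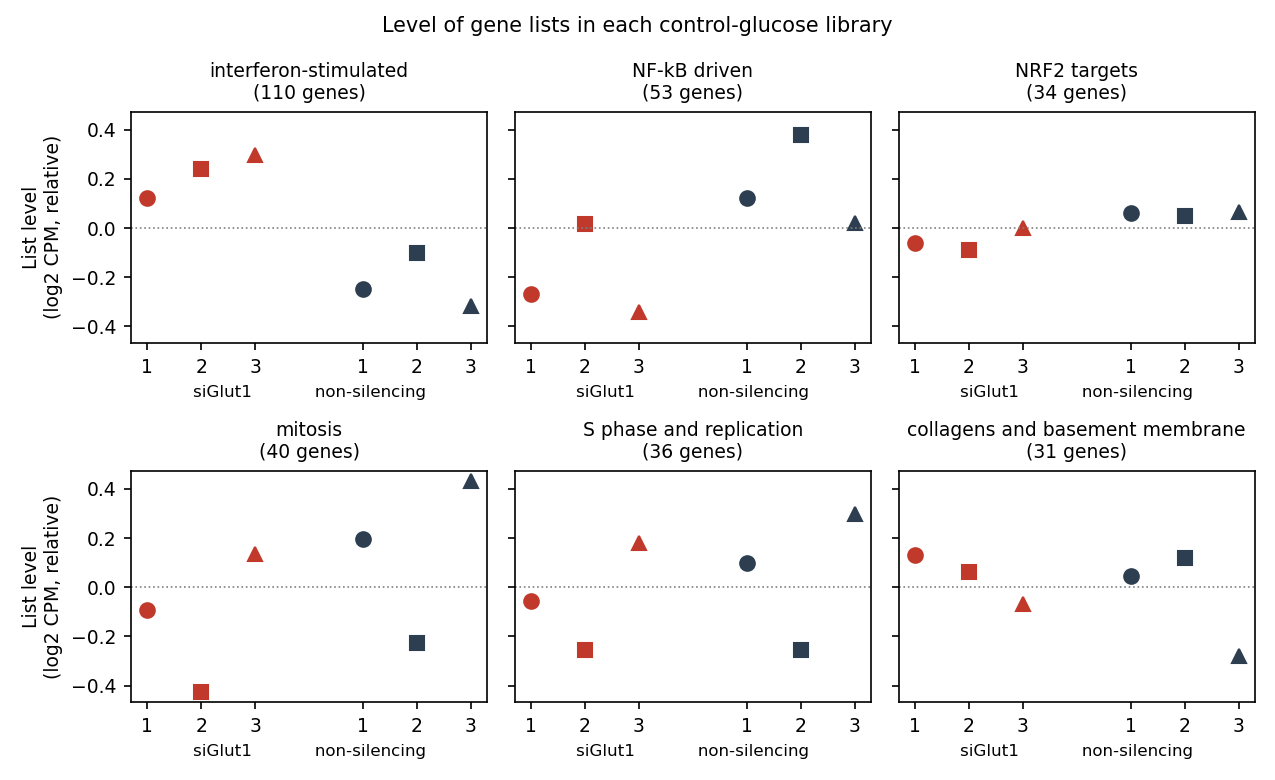
Level of 6 gene lists in each library, as the median over tested members of log2 CPM relative to the mean of the 6 libraries; siGlut1 libraries are red on the left and NS libraries dark on the right, by replicate number. The interferon list separates the groups, with siGlut1 3 at 0.30 and NS 3 at -0.32, while mitosis and S phase are higher in both libraries numbered 3 than in the other libraries of the same group.

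Of the 416 genes, 41 passed under each of the 16 alternative settings run, 22 higher (0.153% of genes tested) and 19 lower (0.133%). Among the risen, PODXL, a sialomucin of the luminal endothelial surface, had 574, 522 and 633 CPM with siGlut1 and 279, 331 and 291 CPM with NS (0.94 ± 0.0942, edgeR adjusted p = 0.000866). Its relative PODXL2 had 6.85, 6.73 and 6.70 CPM with siGlut1 and 3.14, 3.29 and 2.66 CPM with NS (1.16 ± 0.122). For both, all siGlut1 libraries lay far above all NS libraries. CDK14, a kinase of Wnt signalling, had 34.5, 29.0 and 35.6 CPM with siGlut1 and 15.1, 17.2 and 19.7 CPM with NS (0.93 ± 0.113). Trafficking genes in this set were BICD2, a dynein adaptor (0.71 ± 0.0701), the lysosomal LAPTM4B (0.65 ± 0.0627), the palmitoyltransferase ZDHHC18 (0.69 ± 0.0691) and STX12 (0.47), with APH1B, a subunit of gamma-secretase (0.67 ± 0.068), the signalling adaptor TRAF4 (0.66 ± 0.0743) and the sphingosine phosphate lyase SGPL1 (0.64 ± 0.0831).

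The lower genes of that set had mixed roles. KIAA0494, now named EFCAB14, had 69.2, 70.3 and 66.6 CPM with siGlut1 and 121, 127 and 111 CPM with NS (-0.80 ± 0.076, edgeR adjusted p = 0.000866). ANXA1, an annexin that limits inflammation, had 332, 306 and 355 CPM with siGlut1 and 480, 465 and 542 CPM with NS (-0.58 ± 0.0741). ZMAT3, a p53 target that binds RNA, had 109, 108 and 86.5 CPM with siGlut1 and 166, 173 and 163 CPM with NS (-0.72 ± 0.122). It was the 1 of 24 p53 targets to pass, against 2.9% of all genes. The groups were separate for all 3. RPL17, a protein of the large ribosomal subunit, fell by 0.67 on the log2 scale (SE 0.082). It is not in the list of 49 ribosomal proteins, of which 0 passed by edgeR (3 higher and 2 lower at an unadjusted p under 0.05; 1 higher by DESeq2 and 1 by limma-voom), and its reads could be split with pseudogene copies. SH3BGRL2 (-0.79), TAF2, a subunit of the general factor TFIID (-0.67), CNOT6, a deadenylase (-0.60), C10orf46, now named CACUL1 (-0.56), and RPS6KC1 (-0.51) also fell.

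**Figure D5:**
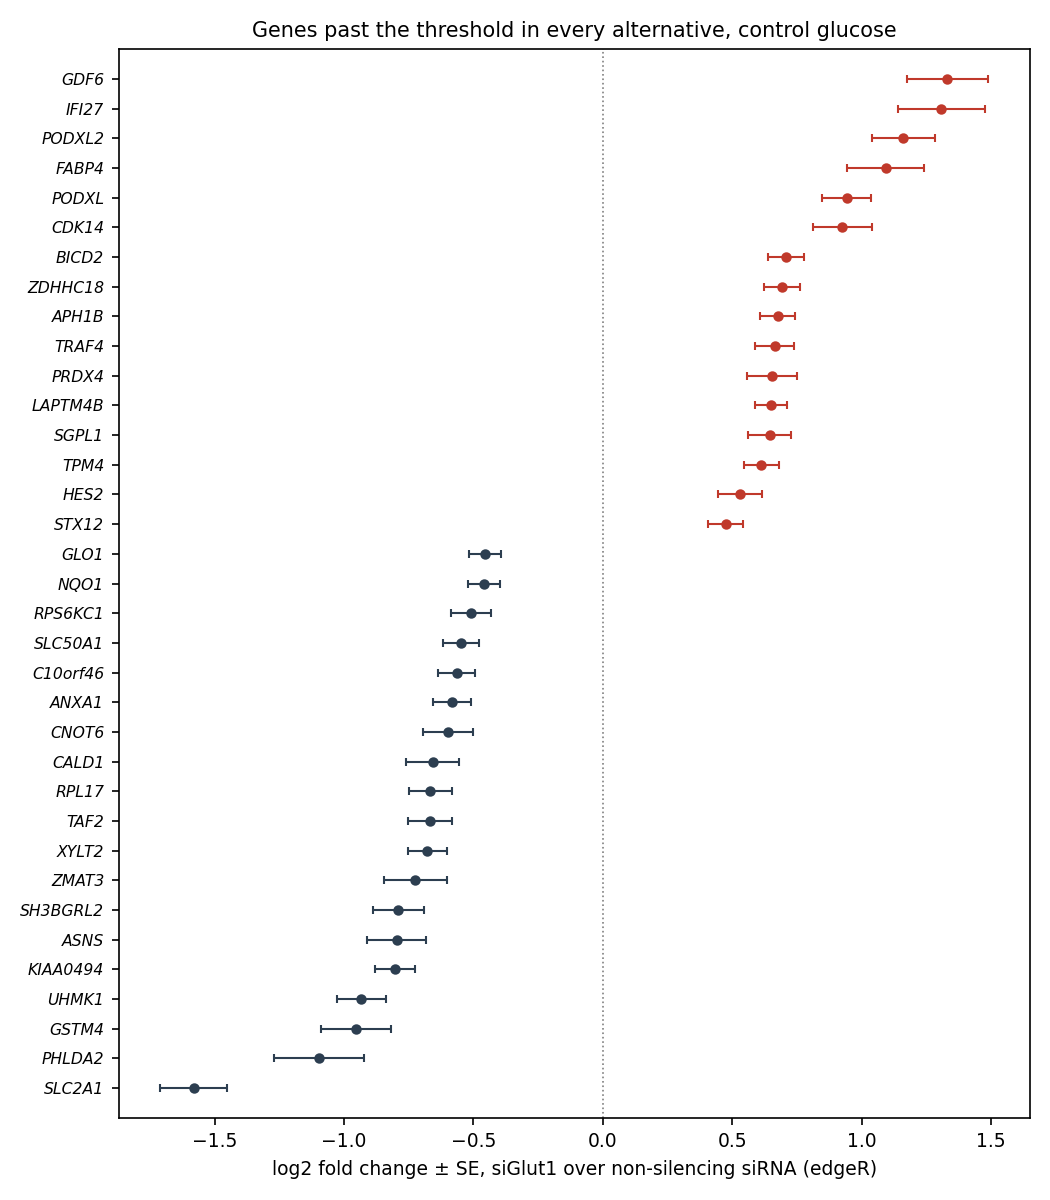
Log2 fold change ± SE (siGlut1 over NS, edgeR) of 35 of the 41 genes past the threshold as reported and under each of the 16 alternative settings, those described in the text; red genes were higher with siGlut1 and dark genes lower. GDF6 at 1.33 and IFI27 at 1.31 are the highest, and SLC2A1 at -1.58 and PHLDA2 at -1.10 the lowest.

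The response was set beside that in high glucose, which rests on libraries of its own (siGlut1 n = 3, NS n = 2 after a column equal to the mean of the other NS libraries was left out). There 352 genes rose (2.46%) and 234 fell (1.63%). Of the 240 genes that rose in control glucose 155 also rose in high glucose, which is 64.6% of the control list and 44% of the high-glucose list, and of the 176 that fell 102 did, 58% and 43.6%. The test of the difference between the media, an interaction term, found 0 genes by edgeR, DESeq2 or limma-voom, with 391 at an unadjusted p under 0.05 by edgeR and a smallest adjusted p of 0.999. SLC2A1 stood at -1.58 in control and -1.61 in high glucose, MX1 at 1.96 and 1.99, PODXL at 0.94 and 1.15, NQO1 at -0.46 and -0.67, and ASNS at -0.80 and -1.02. PPARG, at 1.72 in control glucose, stood at 0.87 in high glucose with an adjusted p of 0.157 there, and its difference between media did not pass.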

How the data were processed

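Gene expression of HBMEC was measured by RNA sequencing. Per the labels, total RNA was isolated with RNeasy columns, and both a TruSeq stranded mRNA kit and a SMARTER kit are named, with no assignment to libraries. The deposited table gives whole-number gene counts and RPKM values made by the authors, with hg19 coordinates; the submitters' processing notes name hg19 and DESeq2 without versions. For the aligner, counter, annotation and use of strand, nothing is given in the sources used here, so reads of overlapping and antisense genes cannot be told apart. The RPKM values were not used in any test. All counts of the 11 libraries used were even, and halving them was run as an added alternative.

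Of 23398 entries, 101 with repeated symbols were removed, which left 23297. For NS in high glucose, the replicate 2 column was left out, because 23397 of its 23398 entries were the average of the columns for replicates 1 and 3. Counts of 11 libraries were fitted in R 4.3.3 with edgeR 4.0.16 (filterByExpr, TMM, robust glmQLFit, group means, no replicate block; 7 residual degrees of freedom, common dispersion 0.0161), and all 14334 genes kept were tested two-sided with Benjamini-Hochberg adjustment, threshold 0.05. SE is the size of the log2 fold change over the square root of F. Levels per kilobase are CPM over the deposited gene length. On simulated counts for siGlut1 against NS in control glucose over 14334 genes, edgeR recovered 73.7% of genes changed by 1 and 90.9% of those changed by 2 on the log2 scale.

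The members, the 44 gene lists, the 9 marker lists and the rule for named genes were chosen with earlier results of these data known. The rule takes SLC2A1, then, among genes past the threshold with a mean of at least 2 CPM and separate groups, the 12 largest changes, the 8 lowest p and the 10 largest among those past the threshold in every alternative and with each library left out, per direction, without clone, antisense, LOC, LINC and pseudogene symbols. It adds up to 4 members past the threshold per list and direction, or the 2 with most counts where none passed. Genes named outside this rule were chosen after their values were seen; these are PRDX4, SGPL1, STX12, ANXA1, CNOT6, RPS6KC1, the interferon and NF-kB members said to be so in the text, and the markers of cell types. Alternatives were DESeq2 1.42.0, limma-voom (limma 3.58.1) with quality weights, DESeq2 size factors, no filter, at least 1 CPM in at least 3 libraries, only the 2 groups, all 12 columns, a replicate block, both libraries numbered 3 left out, and each library left out. Promoters are RefSeq windows of GRCh38.p14 matched by symbol and chromosome. Some results on items withheld for evaluation are not reported here.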

Additional observations from a re-analysis of the deposited data

How the results depend on the processing

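The count of genes past the threshold was 416 and moved to 1050 with DESeq2, 1051 with limma-voom, 70 with only the 2 control-glucose groups, 824 with all 12 columns, 277 without both libraries numbered 3, and 135 to 317 with 1 library left out; 0 of the 416 changed sign in any of the 16 alternatives. SLC2A1 stayed past the threshold in all 16. The interferon count of 35 moved to 53 with DESeq2, 1 without both libraries numbered 3, and 6 to 28 with 1 library left out. The NF-kB count of 3 moved to 12 with DESeq2, 11 with limma-voom, 0 with only the 2 groups, 8 with all 12 columns, and 0 to 2 with 1 library left out. The NRF2 count of 4 moved to 8 with limma-voom, 1 with only the 2 groups, and 2 to 3 with 1 library left out. The cause of these moves was not tested. The fit as reported did not treat the replicate numbers as pairs. Deviations from the group means of same-numbered libraries correlated at 0.0936, 0.353 and 0.536 for replicates 1, 2 and 3. Libraries siGlut1 2 and siGlut1 3 correlated best with the NS library of their own number, and siGlut1 1 with NS 2 (0.199). With the replicate block 573 genes passed, and the NF-kB count was 10.

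Among the genes chosen by the naming rule, signs turned for the 9 below, none of which passed. ATP5B (0.0028) stood at -0.0023 with DESeq2, -0.018 with limma-voom, -0.0022 with DESeq2 size factors, -0.041 without both libraries numbered 3 and -0.0047 with counts halved. RPS2 stood at -0.024 with limma-voom and -0.029 without both libraries numbered 3, and RPLP0 at -0.028 and -0.049. With 1 library left out the log2 fold change ran from -0.073 to 0.035 for ENO1, -0.044 to 0.041 for CD59, -0.060 to 0.020 for HSP90AB1, -0.070 to 0.0070 for CALR, -0.098 to 0.13 for HSPA8, -0.031 to 0.022 for ATP5B, -0.062 to 0.089 for RPS2, -0.056 to 0.084 for RPLP0 and -0.22 to 0.016 for MCM7. With 3 libraries a group, a p that missed the threshold does not show equal levels, and genes of a few CPM carry more counting error.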

Other observations

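Further genes outside the groups above passed the threshold (edgeR, siGlut1 over NS in control glucose). In the list of metallothioneins, which bind zinc and copper, and metal-handling genes, 2 of 17 rose (against 1.67% of all genes): MT2A had 972, 833 and 1227 CPM with siGlut1 and 708, 528 and 586 CPM with NS (0.73 ± 0.171, edgeR adjusted p = 0.0449), and MT1L, whose reads could be split with its paralogs, rose by 1.01 ± 0.215. Neither passed without both libraries numbered 3 (adjusted p = 0.248 and 0.167). Of 37 lysosome genes 3 rose (against 1.67% of all genes). Among them were the protease genes CTSB, at 1568, 1471 and 1399 CPM with siGlut1 and 1190, 1204 and 1080 CPM with NS (0.35 ± 0.0677), and CTSC (0.30 ± 0.0671).

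GRB10, an imprinted adaptor that restrains insulin signalling, had 235, 225 and 246 CPM with siGlut1 and 174, 180 and 161 CPM with NS (0.46 ± 0.0649, edgeR adjusted p = 0.00662). ABAT, which breaks down GABA, had 3.18, 2.68 and 1.83 CPM with siGlut1 and 5.52, 6.58 and 4.48 CPM with NS (-1.10 ± 0.223, edgeR adjusted p = 0.0264). For both, the groups did not overlap. HES2, a factor of the HES family, had 46.3, 47.5 and 47.1 CPM with siGlut1 and 32.1, 33.1 and 32.5 CPM with NS (0.53 ± 0.0855, edgeR adjusted p = 0.0108), with almost no spread within a group. In the Wnt list 2 of 29 rose and 0 fell (against 1.67% and 1.23% of all genes), with a median of 0.08. They were AXIN2, a feedback inhibitor (0.72 ± 0.156), and the receptor gene FZD4 (0.31 ± 0.0727). Of 17 integrin genes, ITGA6 (0.43 ± 0.0778) and ITGA5 (0.36 ± 0.073) rose and 0 fell (against 1.67% and 1.23% of all genes). In that list 10 were negative and the median was -0.015. Of 32 guidance cue genes, the semaphorin gene SEMA3F (0.34 ± 0.0663) rose and 0 fell (against 1.67% and 1.23% of all genes), with a median of 0.06. Of these last 5 genes, ITGA6 passed without both libraries numbered 3 (edgeR adjusted p = 0.0124), and the others had adjusted p from 0.056 to 0.126.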
